A study of Mus musculus with 48 samples.

Results

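The subject is the divergence of 2 thigh muscles of the mouse between late gestation and adulthood: how far the difference between the slow-biased vastus intermedius (VI) and the fast-biased vastus lateralis (VL) in adults departs from the same difference shortly before birth (E18.5, counted in embryonic days). For each gene the divergence was the log2 difference adult VI minus adult VL, less the log2 difference E18.5 VI minus E18.5 VL, so a positive value means that VI gained on VL with age. Messenger RNA came from male mice of the inbred strain FVB/NJ, with 6 animals per stage, and the adults carry a postnatal day 56 tag in the design text but an age of 3 to 4 months at purchase in the growth protocol. The labels name no allele and no treatment, describe the animals as healthy, and give 4 hindlimb muscles from each, with 1 library per muscle. The groups were adult VI (5 libraries), adult VL (6), E18.5 VI (6) and E18.5 VL (6), so 23 of the 48 libraries of the series were used. The members were genes sorted by which muscle changed, and 15732 of the 27179 genes in the count table had enough counts to be tested.

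Skeletal muscle is built of fibres that differ in speed and fuel. Slow fibres use the slow myosin heavy chain (Myh7), slow troponins and slow light chains, pump calcium with Atp2a2, and burn fatty acids in abundant mitochondria. Fast fibres use the Myh2, Myh1 or Myh4 myosins in order of rising speed, pump calcium with Atp2a1, and rely more on glycogen and glycolysis. Before birth, limb muscles are rich in embryonic (Myh3) and neonatal (Myh8) myosin, and the adult fibre types settle after birth with nerve activity and thyroid hormone.

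One adult VI library (collection B, where a collection is a date tag that stands for 1 animal) was left out because its profile was embryonic. It held Myh3 at 8916 CPM, against 6.23 to 23.0 CPM in the other adult VI libraries and 8428 to 13493 CPM in E18.5 VI, where CPM is the read count relative to the scaled library size. Igf2, which encodes a growth factor of fetal life, reached 8345 CPM in it, against 34.4 to 58.2 CPM in the other adult VI libraries. That choice rests on measured values, and values with this library put back are given beside many, though not all, of the results it changes. Total counts of the libraries used were 14935541 to 32383982 (median 24382047), so a count of 0 allowed up to 3 counts, or 0.0926 to 0.201 CPM. The 20 most abundant genes took 28.1% to 32.8% of counts in adult VI and 39.1% to 45.5% in adult VL, and a smaller share in every E18.5 library. Levels are bulk averages, in which fewer cells of a type and less RNA per cell cannot be told apart.

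At E18.5, 2 of the 6 animals went against the muscle labels for slow genes. Of 16 slow sarcomere genes, 16, 13, 15 and 16 were higher in VI than in VL of the same animal in E18.5 collections A, C, D and E, but only 2 in collection B and 3 in collection F. The median log2 difference over these genes (VI minus VL, with 0.5 CPM added) was 1.21, 1.5, 1.79 and 1.07 in collections A, C, D and E, against -1.20 in B and -0.23 in F. In the 5 adult animals it was 7.79 to 9.99, with 16 of 16 genes higher in VI each time. E18.5 collections B and F differed from each other in fast sarcomere genes. Of 16 such genes, 14 were higher in VI in B (median 0.49) but 1 in F (median -0.21), against 1 to 4 in A, C, D and E. In F only 1 of 9 skeletal muscle defining genes was higher in VI as well (median -0.17). The libraries were kept under their labels, and values without E18.5 collection B are given for many, though not all, of the calls they change.

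**Figure D1:**
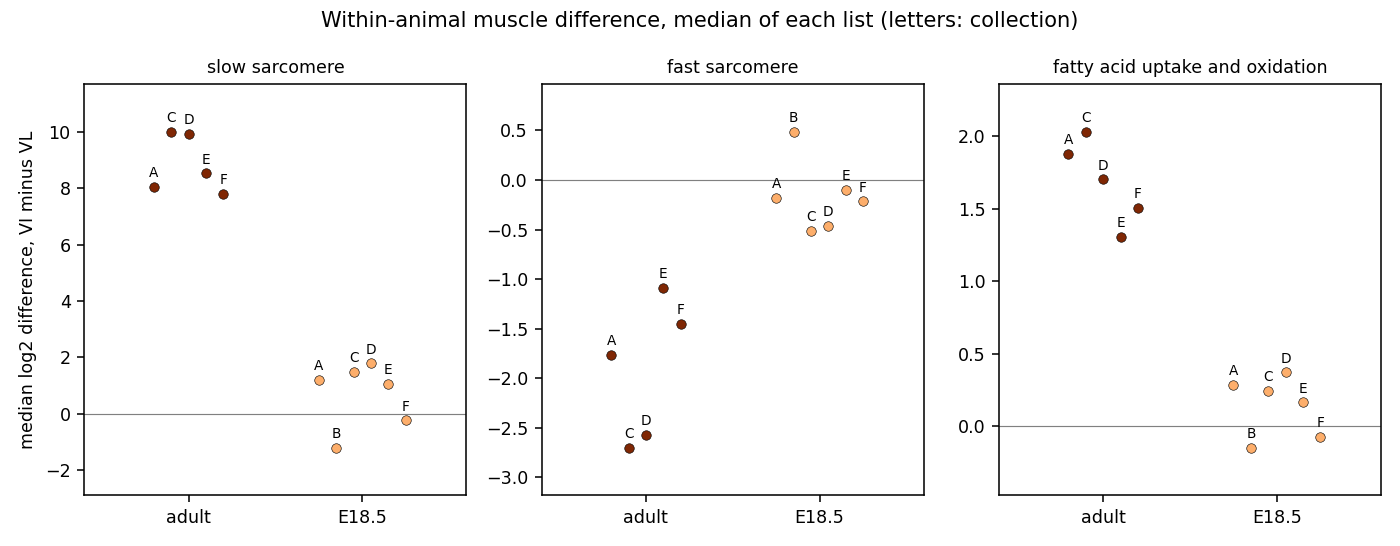
Within-animal difference between VI and VL (median log2 difference over each gene list, y axis) for the slow sarcomere, fast sarcomere and fatty acid lists, with adults on the left, E18.5 on the right and 1 lettered point per animal. For slow sarcomere genes the 5 adults sit between 7.79 and 9.99, above all 6 E18.5 animals, of which B (-1.20) and F (-0.23) lie below 0.

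The thigh muscles were close to each other before birth and far apart in adults. In the divergence test (edgeR quasi-likelihood, adjusted p under 0.05 over all genes tested), 5418 of 15732 genes passed (34.4%), 2676 positive (17%) and 2742 negative (17.4%). VI and VL differed in 7804 genes in adults (49.6%) and in 1 gene at E18.5 (0.00636%), with 651 at an unadjusted p under 0.05 (4.14%). With the adult VI library of embryonic profile put back, 4840 genes passed the divergence test, 2808 positive and 2032 negative, so that 58.0% of the calls were positive, against 49.4% without it. The median absolute log2 difference over all genes was 0.48 between the adult muscles and 0.096 between the E18.5 muscles. For 5298 of the 5418 genes (97.8%) the adult pair passed and the E18.5 pair did not. Because only 1 gene passed at E18.5, this share describes little beyond the adult pair. The E18.5 count depended on collection B, since 48 genes passed without it, 30 higher and 18 lower in VI. It was 3 without adult collection C, 2 without adult collection D, 5 with the animal as a block, 19 with DESeq2, and 0 with the adult VI library of embryonic profile put back.

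The 1 gene called at E18.5 was Vtn, which encodes vitronectin, an adhesion glycoprotein of plasma and matrix. It had 22.0 to 28.1 CPM in adult VI, 21.5 to 35 CPM in adult VL, 3.02 to 5.54 CPM in E18.5 VI and 4.44 to 22.1 CPM in E18.5 VL. The E18.5 muscles overlapped through collection B alone, with 4.44 CPM in both of its libraries. The E18.5 difference was -1.94 ± 0.25 log2 (SE, adjusted p = 0.000815), and Vtn was also the single gene whose pair differed at E18.5 and no longer passed in adults.

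Genes were sorted by each muscle's own change with age, which passed the test in 11536 genes in VI (73.3%, with 34.9% higher and 38.4% lower in adults) and 12388 in VL (78.7%, with 36.2% higher and 42.6% lower). A positive divergence was called a gain in VI when VI rose and VL did not pass or rose less, a loss in VL when VL fell and VI did not pass or fell less, and both ways when VI rose and VL fell. Negative divergence was sorted in mirror image. Because the stage changes share libraries with the divergence, these counts are a description. The largest class was a gain in VL (1917 genes, 35.4% of those called), then a loss in VL (1584, 29.2%), a gain in VI (859, 15.9%) and a loss in VI (644, 11.9%). Both muscles moved apart in opposite directions in 220 genes of positive and 168 of negative divergence, and in 13 genes of each sign neither muscle passed.

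VL was thus the muscle that changed alone or more in 3501 genes (64.6%), against 1503 (27.7%) for VI. The share on the VL side was 63.3% to 66.0% when any 1 animal was left out, and 81.7% with the adult VI library of embryonic profile put back. The larger absolute change lay in VL for 68.4% of called genes, and for 61.8% of all genes tested. Median divergence was 0.97 for gains in VI, 1.06 for losses in VL and 1.77 for both ways positive, on the log2 scale, and -0.68, -0.65 and -0.95 for losses in VI, gains in VL and both ways negative.

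**Figure D2:**
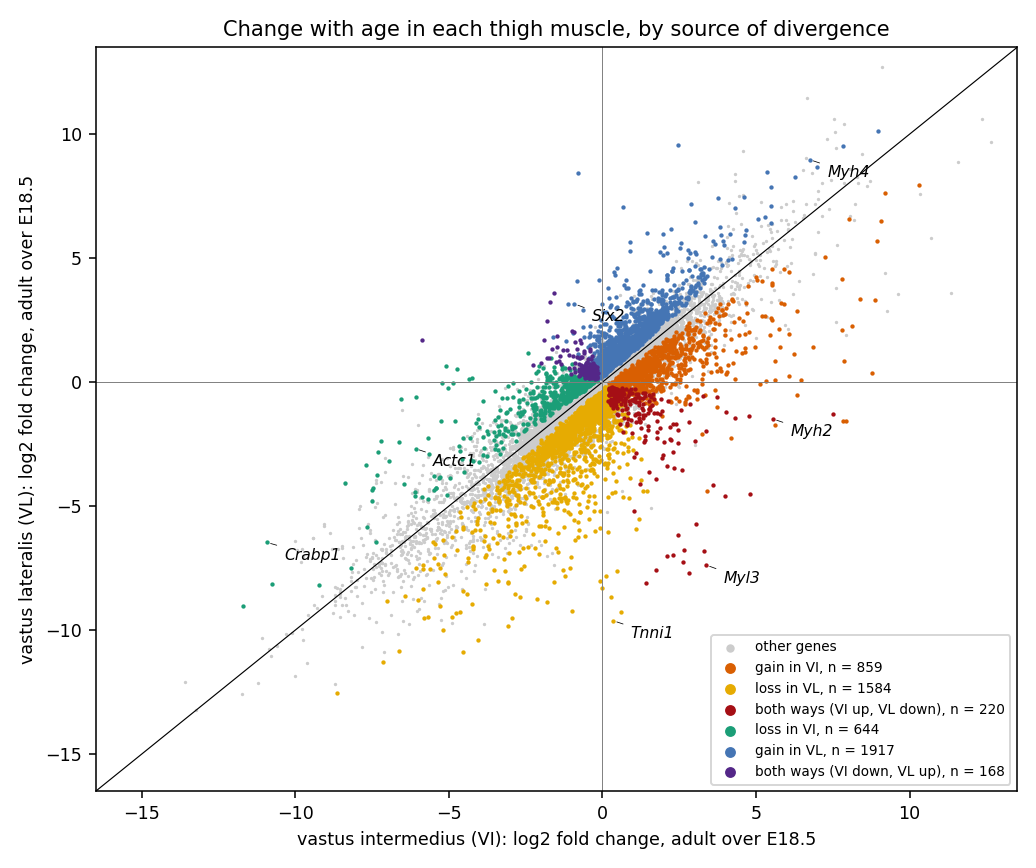
Log2 fold change of adult over E18.5 in VI (x axis) and VL (y axis) for every gene tested, coloured by source of divergence, with the line of equal change. Genes right of or below the line gained in VI relative to VL, and Tnni1 and Myl3 lie far below it through their fall in VL.

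Promoter windows of 5 genes named by source are shown, to give 1 example for 5 of the 6 sources: Sbk3 (gain in VI), Tnni1 (loss in VL), Myl3 (both ways positive), Fam83d (loss in VI) and Tmem132b (gain in VL). They come from RefSeq on GRCm38.p6, the assembly behind mm10, and run from 250 bases before to 50 after an annotated start, 5′ to 3′ on the gene's strand. Capitals mark matches on either strand to TATAAA (a core promoter box), CATTCC (the core bound by TEAD factors), TCAGGTT (a MEF3-type site), CANNTG (the E-box of myogenic factors) or the MEF2 consensus.
Sbk3, chr7:4970912-4971211, minus strand: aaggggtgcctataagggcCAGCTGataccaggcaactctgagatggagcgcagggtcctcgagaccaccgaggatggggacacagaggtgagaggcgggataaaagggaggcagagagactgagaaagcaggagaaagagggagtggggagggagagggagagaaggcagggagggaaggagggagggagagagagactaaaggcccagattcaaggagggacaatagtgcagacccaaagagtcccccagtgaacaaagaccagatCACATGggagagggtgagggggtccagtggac
Tnni1, chr1:135799171-135799470, plus strand, 1 of 2 windows of the gene: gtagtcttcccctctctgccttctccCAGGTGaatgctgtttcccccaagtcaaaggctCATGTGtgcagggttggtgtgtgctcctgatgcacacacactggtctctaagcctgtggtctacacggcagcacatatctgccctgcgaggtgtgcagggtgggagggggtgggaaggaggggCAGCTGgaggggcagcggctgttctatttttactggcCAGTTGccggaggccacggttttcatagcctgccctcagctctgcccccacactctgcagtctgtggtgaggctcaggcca
Myl3, chr9:110763428-110763727, plus strand: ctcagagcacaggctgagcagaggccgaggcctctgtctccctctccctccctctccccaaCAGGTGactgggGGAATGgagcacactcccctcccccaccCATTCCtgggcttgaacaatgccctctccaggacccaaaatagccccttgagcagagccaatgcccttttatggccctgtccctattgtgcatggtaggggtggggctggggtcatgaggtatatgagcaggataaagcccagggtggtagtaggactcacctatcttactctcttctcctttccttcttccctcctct
Fam83d, chr2:158767849-158768148, plus strand: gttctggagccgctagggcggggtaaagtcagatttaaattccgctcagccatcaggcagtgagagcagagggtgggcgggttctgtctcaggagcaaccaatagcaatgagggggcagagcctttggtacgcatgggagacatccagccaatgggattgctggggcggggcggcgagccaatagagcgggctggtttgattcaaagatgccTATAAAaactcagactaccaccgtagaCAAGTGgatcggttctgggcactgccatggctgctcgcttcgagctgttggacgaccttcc
Tmem132b, chr5:125532168-125532467, plus strand: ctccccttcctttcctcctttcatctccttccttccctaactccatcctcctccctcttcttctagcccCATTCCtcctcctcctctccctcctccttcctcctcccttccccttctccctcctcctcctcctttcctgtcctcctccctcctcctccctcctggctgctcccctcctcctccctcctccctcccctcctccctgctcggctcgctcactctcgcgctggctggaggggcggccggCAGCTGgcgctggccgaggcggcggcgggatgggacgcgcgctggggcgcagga
The Myl3 window holds 2 CATTCC matches, at -177 and -149 from the start, beside 1 E-box. The Fam83d window holds a TATAAA match at -38, the Tnni1 window 4 E-boxes and the Sbk3 window 2. Tmem132b has 1 CATTCC match at -181 and 1 E-box at -4.

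Of the 5418 called genes, 4209 have a window in the table. CATTCC occurred in 14.7% of windows of genes with a loss in VL, 14.8% of those both ways positive, 12.6% of gains in VI, 11.9% of losses in VI, 11.4% of gains in VL and 9.52% of those both ways negative. Over the 15125 windows of tested genes it occurred in 12.7%, TATAAA in 7.76%, TCAGGTT in 3.30%, the E-box in 65.1% and the MEF2 consensus in 1.95%. In the windows of genes with a called positive divergence over 4-fold, TATAAA occurred in 12.7%, the MEF2 consensus in 4.22% and the E-box in 75.0%. For a called negative divergence over 4-fold these shares were 10.5%, 1.75% and 70.8%. CATTCC occurred in 14.3% of the windows of the positive set and 14.6% of those of the negative set. These shares were not tested, and a match is only a description of the letters in the window.

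The slow sarcomere had the largest median divergence of the lists examined, and every gene on it fell in VL with age. All 16 listed genes had positive divergence, against 17% of genes tested, with a median of 8.93 log2 beside 0.05 over all genes. Their median change with age was 1.58 in VI and -7.46 in VL. The change in VL ran over -10.38 for Sln and -2.36 for Atp2a2. In VI, 9 rose, 5 did not pass, and Casq2 and Sln fell. Without E18.5 collection B all 16 still passed, with a median of 7.98.

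Tnni1, the slow isoform of the inhibitory troponin, had 479, 961, 636, 257 and 279 CPM in adult VI, against 0 to 1.31 CPM (median 0) in adult VL. It stood at 289 to 593 CPM (median 385) in E18.5 VI and at 193 to 442 CPM (median 288) in E18.5 VL. Adult VI overlapped both E18.5 groups, whereas 4 of the 6 adult VL libraries had no count at all. The divergence was 9.97 ± 0.69 log2 (adjusted p = 2.42e-10), made of 0.35 in VI, which did not pass (adjusted p = 0.40), and -9.62 in VL. Myoz2, which tethers calcineurin at the Z-disc of slow fibres, showed the same order of groups: 351 to 952 CPM in adult VI, 0 to 1.54 in adult VL, 199 to 656 in E18.5 VI and 186 to 531 in E18.5 VL, with a divergence of 9.91 ± 0.68. Csrp3 (muscle LIM protein, a Z-disc stretch sensor) and Myom3 (an M-band protein) were also losses in VL, at 8.28 ± 0.63 and 8.07 ± 0.53.

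Myl3, the essential light chain of slow fibres and ventricle (promoter above), moved both ways. It had 2274, 3073, 2263, 1202 and 1311 CPM in adult VI, against 0 to 1.31 CPM (median 0.185) in adult VL. In E18.5 VI it ranged over 13.7 to 479 CPM (median 171) and in E18.5 VL over 8.22 to 256 CPM (median 20.8). The E18.5 muscles overlapped, since collection B had its low value in VI and its high value in VL, while the adult muscles stood apart. The divergence was 10.75 ± 1.51 log2 (adjusted p = 9.02e-06), with 3.37 in VI and -7.37 in VL.

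Myl2, the slow regulatory light chain, diverged by 10.12 ± 1.87 (adjusted p = 0.000199), and Tnnt1, slow troponin T, by 9.52 ± 0.83 (adjusted p = 1.52e-08). Myl2 spanned 746 to 2882 CPM in adult VI, 0 to 2.56 in adult VL, 0.847 to 478 in E18.5 VI and 3.55 to 289 in E18.5 VL. Its E18.5 ranges overlapped, and collections B and F had the low values of E18.5 VI. The calcium pump Atp2a2 (5.38 ± 0.38) and slow tropomyosin Tpm3 (5.11 ± 0.63) diverged less, as their fall in VL was -2.36 and -2.81. Sln (sarcolipin, an inhibitor of the calcium pump) fell in both muscles, by -4.05 in VI and -10.38 in VL.

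The myosin heavy chains were compared as shares of 6 genes (Myh7, Myh2, Myh1, Myh4, Myh3, Myh8) after division by length, a measure that needs no scaling between libraries. In adult VI the share of Myh7 was 10.9%, 24.5%, 13.4%, 3.49% and 5.12% in collections A, C, D, E and F, against at most 0.00772% in adult VL. At E18.5 it was 0.0373% to 8.73% in VI and 0.168% to 5.43% in VL. The adult groups were apart and the E18.5 groups overlapped. The divergence of Myh7 on the CPM scale was 9.87 ± 1.69 log2 (adjusted p = 8.88e-05), with a rise of 2.61 in VI and a change of -7.26 in VL.

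Even so, slow myosin was a minor part of adult VI. Myh2 (myosin IIa) made up 33.2 ± 11.6% and Myh1 (IIx) 29.7 ± 11.4% of the 6 genes there (SD, n = 5), against 0.0992 ± 0.0292% and 0.817 ± 0.72% in adult VL (SD, n = 6). Myh4 (IIb), the fastest, made up 25.5 ± 22.9% in adult VI and 99.1 ± 0.753% in adult VL. The Myh4 share of adult VI ran over 2.43% in collection C and 61.3% in collection E, so single VI samples differed widely. Embryonic Myh3 and neonatal Myh8 held 42.6% and 51.5% in E18.5 VI and 32.6% and 63.0% in E18.5 VL. The adult difference between muscles, less the E18.5 difference, was 33.3 points for Myh2, 29.1 for Myh1, 9.23 for Myh7 and -73.2 for Myh4. For Myh7 it was 5.97 points without adult collection C. The same measure was 11.5 points for Myh8 and -9.93 for Myh3, but their adult differences were only 0.0034 and 0.023 points. Both values came from E18.5, where VI minus VL averaged -11.5 points for Myh8 and 9.95 for Myh3. E18.5 collection B alone went the other way, at 20.6 and -15.4 points.

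Myh2 was the clearest of these in the gene-wise test. It had 14401, 20284, 21994, 14844 and 15570 CPM in adult VI, against 97.3 to 221 CPM (median 132) in adult VL, 218 to 457 CPM (median 417) in E18.5 VI and 287 to 539 CPM (median 367) in E18.5 VL. Neither E18.5 muscle overlapped its adult counterpart. Its divergence was 7.04 ± 0.33 log2 (adjusted p = 9.85e-13), with 5.55 in VI and -1.48 in VL, so this fast-fibre gene rose in VI and fell in VL. Myh1 rose in both muscles, by 7.80 in VI and 4.15 in VL, and diverged by 3.65 ± 0.78 (adjusted p = 0.000863).

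Myh4 rose by 6.75 in VI and 8.97 in VL. It had 14399, 1034, 5564, 49378 and 12051 CPM in adult VI and 114646 to 170576 CPM in adult VL, against 101 to 232 CPM in E18.5 VI and 116 to 467 CPM in E18.5 VL. The divergence of -2.23 ± 0.75 passed (adjusted p = 0.0237), but the adjusted p was 0.0661 without E18.5 collection B, 0.063 without adult D and 0.0507 without adult F. It was 0.0643 with the adult VI library of embryonic profile put back. Myh3 (1.70 ± 0.71, adjusted p = 0.0678) and Myh8 (-0.74 ± 0.38, adjusted p = 0.136) did not pass. Myh3 reached 3.44 (adjusted p = 4.54e-06) without adult F, whose VL library held 12.4 CPM, and passed with the animal as a block (adjusted p = 0.0422). Put back, the adult VI library of embryonic profile moved Myh3 to 8.45 (adjusted p = 0.00415) and Myh8 to 7.97 (adjusted p = 0.00789). Apart from Myh7 these genes lie in 1 cluster, from the start of Myh3 at chr11:67078273-67102291 to the end of Myh8 at chr11:67277124-67308634 (GRCm38.p6). Myosin genes are similar in sequence, so reads may have been assigned between them.

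**Figure D3:**
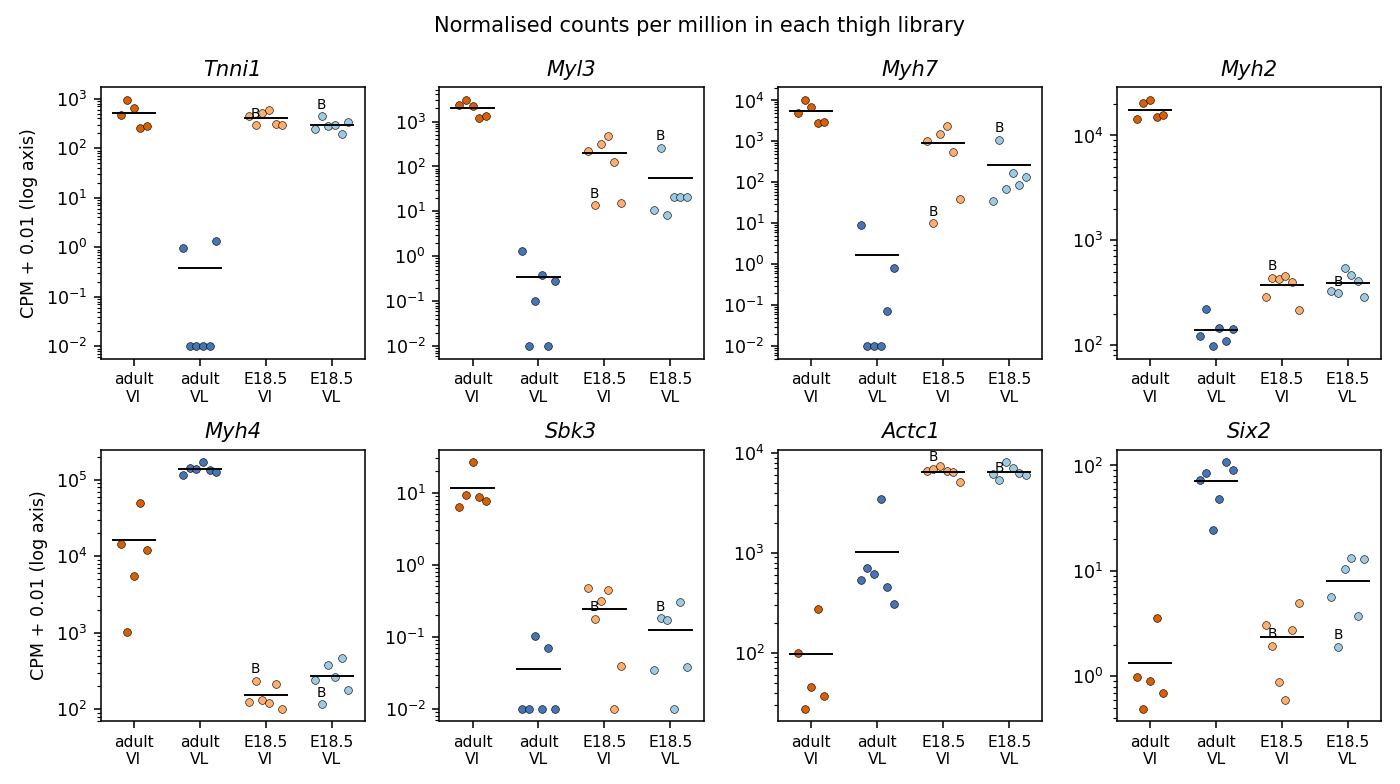
CPM plus 0.01 on a log axis for 8 genes, with 1 point per library in adult VI, adult VL, E18.5 VI and E18.5 VL from left to right, group means as lines and E18.5 collection B marked. For Tnni1, Myl3 and Myh7 adult VL lies below every other group, with Tnni1 at 0 to 1.31 CPM there, while for Myh2 and Sbk3 adult VI lies above the rest.

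Fast sarcomere genes diverged by gain in VL, and by far smaller steps. Of 16 tested, 11 had negative divergence, all of them gains in VL, and 2 (Myh1 and Myh2) positive, against 17.4% and 17% of all genes. The list's median divergence was -1.63. With age 14 of the 16 rose in VI (median 2.11) and 14 in VL (median 3.19). Casq1, the calcium buffer of the fast sarcoplasmic reticulum, had 1092, 708, 961, 1938 and 991 CPM in adult VI, against 5356 to 8662 CPM in adult VL, 466 to 985 in E18.5 VI and 489 to 960 in E18.5 VL. Adult VL stood clear of the other groups, and the divergence was -2.33 ± 0.32 (adjusted p = 6.8e-06). Fast alpha-actinin Actn3 diverged by -2.71 ± 0.87 (adjusted p = 0.0176), which was lost without E18.5 collection B (adjusted p = 0.0634) or without adult D (0.0568). The fast light chain Mylpf (-1.94 ± 0.29), tropomyosin Tpm1 (-1.75 ± 0.28) and calcium pump Atp2a1 (-1.67 ± 0.33) passed as well. Pvalb (parvalbumin, a cytosolic calcium buffer) at -0.91 ± 0.86 and Mybpc2 at -1.93 ± 0.80 did not pass. Without E18.5 collection B, 9 of the 16 were negative.

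Genes that couple excitation to contraction followed the fast side. Of 23 tested, 19 had negative divergence, 18 by gain in VL, and 3 positive, against 17.4% and 17% of all genes tested. The median divergence was -1.07. With age 17 of the 23 rose in VI (median 1.66) and 22 in VL (median 2.51). Junctophilin Jph2, which holds the membrane junctions of the triad, diverged by -1.68 ± 0.16 and Stac3, a partner of the calcium channel, by -1.07 ± 0.13. Cacng1, a subunit of the voltage sensor, moved both ways: it had 96.4, 61.9, 75.9, 164 and 75.0 CPM in adult VI, 334 to 619 in adult VL, 101 to 185 in E18.5 VI and 108 to 203 in E18.5 VL, a divergence of -2.27 ± 0.30 (adjusted p = 4.34e-06). Kcns1, a silent potassium channel subunit, was nearly restricted to 1 group, at 0 to 0.257 CPM in adult VI, 4.76 to 18.2 in adult VL, 0 to 0.948 in E18.5 VI and 0 to 0.099 in E18.5 VL. The exceptions included Pln (phospholamban, the brake of the slow calcium pump), which gained in VI by 3.47 against 1.12 in VL.

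Glycolysis and glycogen genes rose in both muscles, and most of them more in VL. Of 26 tested, 19 were negative, 18 of them gains in VL, and 4 positive, against 17.4% and 17% of all genes tested. The median divergence was -1.20. With age 23 of the 26 rose in VI (median 1.99) and all 26 in VL (median 2.23). Pfkfb3, which makes the activator of phosphofructokinase, had 115, 74.3, 30.5, 434 and 23.6 CPM in adult VI, against 549 to 1999 CPM in adult VL, 17.1 to 27.6 in E18.5 VI and 17.3 to 35.8 in E18.5 VL. It rose in both muscles, more in VL, with a divergence of -3.04 ± 0.73 (adjusted p = 0.00234). Phka1, a regulatory subunit of phosphorylase kinase, diverged by -1.88 ± 0.30, Ldha, the lactate dehydrogenase of fast muscle, by -1.43 ± 0.30, and Aldoa by -1.43 ± 0.31. The positive genes were Hk2 (1.11), Pfkfb1 (0.91), the glycogen branching enzyme Gbe1 (1.51) and Ugp2 (0.83).

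Genes of fatty acid use rose in both muscles and more in VI. Of 27 genes tested, 25 had positive divergence and none negative, against 17% and 17.4% of all genes tested. Of these 24 were gains in VI, and the median of the list was 1.49. All 27 rose in VI with age (median 2.71) and 22 rose in VL (median 1.12). Lpl, the lipase that frees fatty acids from circulating lipoproteins, had 2189, 2633, 2576, 1648 and 2488 CPM in adult VI, 159 to 286 in adult VL, 82.3 to 222 in E18.5 VI and 91.5 to 211 in E18.5 VL. Only adult VI stood apart, and the divergence was 3.41 ± 0.30 log2 (adjusted p = 1.86e-08), with 3.87 in VI and 0.45 in VL. Plin5, a lipid droplet protein, diverged by 3.47 ± 0.67, the carrier Fabp3 by 2.74 ± 0.36 and the transporter Slc27a1 by 2.44 ± 0.27. The exceptions that did not pass were Acadl (0.18 ± 1.05) and Ucp3 (-0.89 ± 0.42).

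The respiratory chain and the tricarboxylic acid cycle moved the same way by smaller amounts. Of 36 oxidative phosphorylation genes, 19 were positive, all gains in VI, and none negative, against 17% and 17.4% of all genes tested. Their median was 0.55. Sdhb, the iron-sulphur subunit of complex II, had 779, 785, 947, 799 and 988 CPM in adult VI, against 277 to 416 CPM in adult VL, 105 to 173 in E18.5 VI and 98.8 to 170 in E18.5 VL, a divergence of 1.09 ± 0.19 (adjusted p = 0.000111). Of 15 cycle genes 10 were positive and none negative, against the same shares of all genes, with a median of 0.50. Idh2, the mitochondrial NADP-dependent isocitrate dehydrogenase, stood out at 3.81 ± 0.19 (adjusted p = 2.24e-12). It had 1376, 1717, 1510, 953 and 1326 CPM in adult VI, 81.2 to 108 in adult VL, 295 to 500 in E18.5 VI and 333 to 446 in E18.5 VL. The adult muscles lay on either side of the E18.5 range, so Idh2 moved both ways. With the adult VI library of embryonic profile put back, 21 of the 27 fatty acid genes and 3 of the 15 cycle genes passed. None of the 36 oxidative phosphorylation genes then passed, at a median of 0.35. Sdhb, Ndufb3, Uqcrfs1, Cyc1 and Dlst were among the genes that lost their call.

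**Figure D4:**
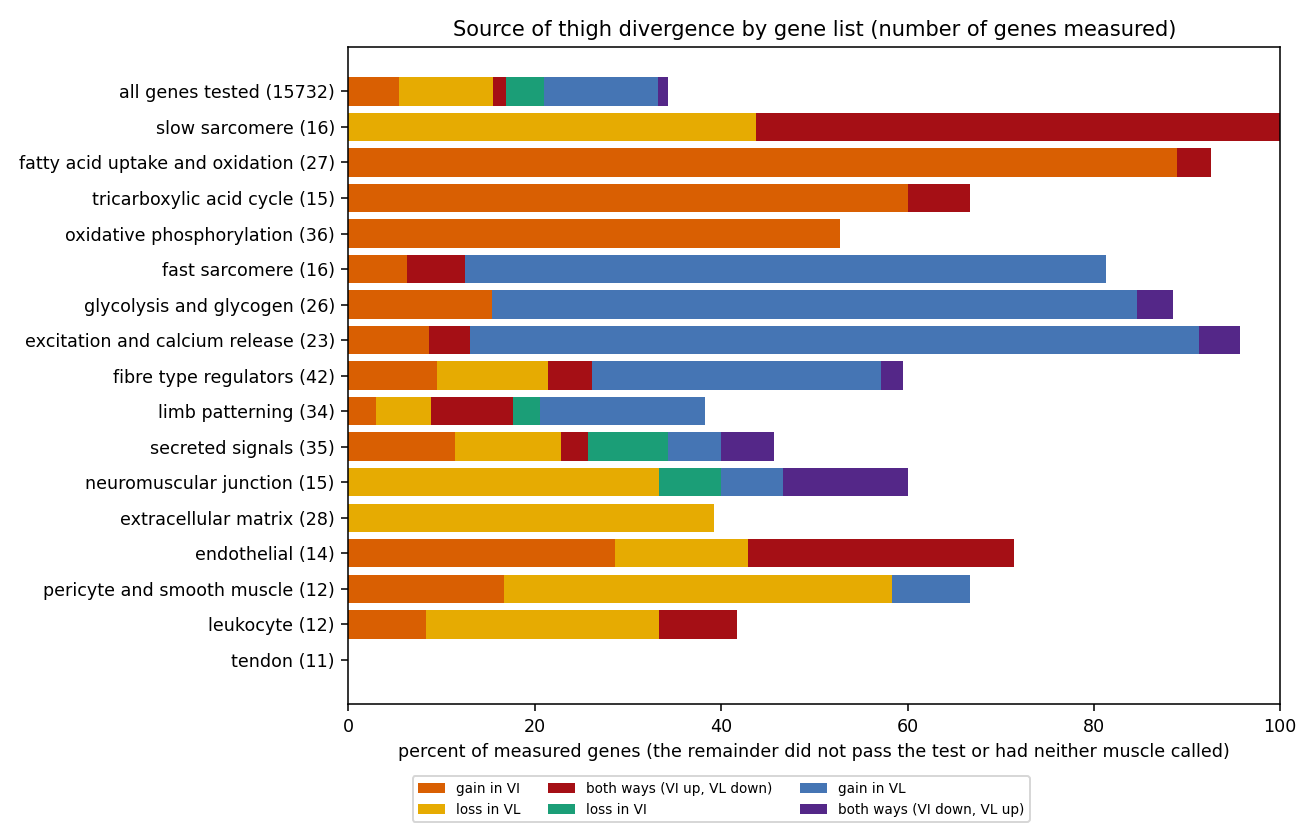
Share of the tested genes of each list (x axis, percent, number tested in brackets) by source of divergence, with all genes tested at the top. The slow sarcomere bar is made of losses in VL and both ways (16 of 16), the fatty acid bar mostly of gains in VI (24 of 27) and the fast sarcomere bar mostly of gains in VL (11 of 16).

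Among 42 regulators of fibre type, 11 had positive and 14 negative divergence, against 17% and 17.4% of all genes tested. Six2, a sine oculis homeobox factor of the family that drives fast genes, had 0.976, 0.480, 0.888, 3.57 and 0.681 CPM in adult VI, against 24.4 to 107 CPM (median 79.0) in adult VL. In E18.5 VI it had 0.582 to 4.95 CPM and in E18.5 VL 1.88 to 13.2 CPM. The E18.5 groups overlapped, and VL rose by 3.16 while VI did not pass (-0.92), which gave -4.07 ± 0.78 (adjusted p = 0.000283). Its relative Six4 was at 0.09 ± 0.16 and did not pass. The large Maf factors Mafa (-2.66 ± 0.32) and Maf (-1.56 ± 0.40), linked to IIb fibres, and the fast-fate factors Tbx15 (-1.42 ± 0.17) and Sox6 (-0.93 ± 0.19) were gains in VL, as was the transcriptional cofactor Eya1 (-0.84 ± 0.22).

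On the slow side, Esrrb, an oestrogen-related receptor, had 40.9, 49.9, 57.9, 31.2 and 44.4 CPM in adult VI, 0.189 to 2.48 in adult VL, 1.83 to 12.7 in E18.5 VI and 2.10 to 5.80 in E18.5 VL. It diverged both ways, by 4.42 ± 0.62 (adjusted p = 8.71e-06), and Esrrg by gain in VI (3.42 ± 0.73). Vgll2, a TEAD cofactor, had 328, 197, 208, 164 and 233 CPM in adult VI, 4.67 to 34.2 in adult VL, 54.8 to 77.1 in E18.5 VI and 45.0 to 73.4 in E18.5 VL, and diverged by 3.34 ± 0.41 (adjusted p = 1.53e-06). Tead4 (1.91 ± 0.27) and Prox1 (3.06 ± 0.51), a homeobox factor of slow fibres, were losses in VL. Ppargc1a, a coactivator of mitochondrial genes, gained in VI (1.96 ± 0.59, adjusted p = 0.0115).

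Outside the lists, the genes named as gains in VI included Sbk3, a kinase of the SH3-binding domain family whose promoter is given above. It had 6.32, 9.23, 26.5, 8.58 and 7.65 CPM in adult VI, against 0 to 0.0944 CPM in adult VL, 0 to 0.462 CPM in E18.5 VI and 0 to 0.297 CPM in E18.5 VL. Adult VI was the only group with counts above the floor in every library. The 6 adult VL libraries held 3 counts in all, and, divided by total counts, the adult VI to adult VL ratio was 457 (exact 95% interval 156 to 2221, counting error only). Klhl34, a kelch protein, had 79.1, 103, 106, 42.8 and 86.9 CPM in adult VI, 0.122 to 1.08 in adult VL, 0.372 to 2.43 in E18.5 VI and 0.260 to 1.23 in E18.5 VL, a divergence of 5.82 ± 0.71 (adjusted p = 1.45e-06). Zdhhc23, a palmitoyltransferase (5.86 ± 1.18), Lrrc52, a potassium channel auxiliary subunit (5.30 ± 0.90), and Cda, cytidine deaminase (5.21 ± 0.67), also had adult VI as the highest group, at 8.37 CPM or more, with all other libraries below 1 CPM.

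Sv2b, a synaptic vesicle glycoprotein, was a loss in VL. It had 18.1, 18.7, 23.4, 17.3 and 15.4 CPM in adult VI, with 1 count in all of adult VL, a ratio of 2222 by the same measure (exact 95% interval 398 to 87829). At E18.5 it spanned 1.22 to 42.7 CPM in VI and 1.69 to 19.3 CPM in VL, and collection B again had its low value in VI and the top value in VL. Wnt16, a secreted Wnt ligand, had 8.12, 15.2, 10.5, 4.46 and 13.4 CPM in adult VI, no count in any adult VL library, 0.305 to 2.79 CPM in E18.5 VI and 0.448 to 1.67 CPM in E18.5 VL. Against a floor of 3 counts per library, adult VI was at least 65.0-fold higher than adult VL. The divergence of Wnt16 passed at an adjusted p of 1.79e-06.

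Genes lost from VI with age included Fam83d, a partner of casein kinase 1 on the mitotic spindle. It had 0.205, 0.0534, 0, 1.58 and 0.210 CPM in adult VI, against 5.08 to 13.6 CPM in adult VL, 9.55 to 12.0 CPM in E18.5 VI and 8.68 to 12.5 CPM in E18.5 VL. Adult VI alone was low, and the divergence was -4.81 ± 0.56 (adjusted p = 8.88e-07). Tpx2, a spindle assembly factor, fell in both muscles, by -5.25 in VI and -1.55 in VL, and held 0.995 to 3.78 CPM in adult VI and 13.6 to 31.5 CPM in adult VL. In the cell cycle list, 1 gene was positive and 2 were negative of 21 tested, against 17% and 17.4% of all genes. With the adult VI library of embryonic profile put back, neither Fam83d (adjusted p = 0.0953) nor Tpx2 (adjusted p = 0.565) passed. Of the 21 cell cycle genes 17 were then positive and none negative.

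Actc1, cardiac alpha-actin, had 100, 27.4, 45.1, 271 and 37 CPM in adult VI, against 305 to 3444 CPM (median 572) in adult VL, 5064 to 7365 CPM in E18.5 VI and 5339 to 8081 CPM in E18.5 VL. The E18.5 muscles overlapped and the adult muscles did not. The divergence was -3.40 ± 0.76 (adjusted p = 0.00121), and 0.22 (adjusted p = 0.915) with the adult VI library of embryonic profile put back. Mybph, a myosin-binding protein of the thick filament, fell by -2.42 in VI and diverged by -3.58 ± 0.84. Crabp1, a cytosolic retinoic acid carrier, all but vanished from both muscles: it had 1 count in adult VI and 37 in adult VL, a ratio of 27.4 in VL over VI (exact 95% interval 4.62 to 1110), and 17.2 to 49.0 CPM at E18.5. With that library put back its fitted divergence was 4.04 (adjusted p = 0.0606).

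Gains in VL included Gdap1, a mitochondrial outer membrane protein. It had 3.18, 0.694, 0.533, 5.90 and 3.40 CPM in adult VI, 30.1 to 77.9 in adult VL, 0.800 to 2.36 in E18.5 VI and 0.615 to 1.37 in E18.5 VL, a divergence of -4.75 ± 0.58 (adjusted p = 1.55e-06). Tmem132b had 0.0534 to 3.43 CPM in adult VI and 9.51 to 19.9 CPM in adult VL, against at most 0.329 CPM in either muscle at E18.5, so it appeared with age mainly in VL. Its divergence of -4.30 ± 1.27 passed (adjusted p = 0.0108), but not without E18.5 collection E (adjusted p = 0.0826). Cdh4, a cell adhesion cadherin (-4.23 ± 0.70), and Htra4, a serine protease (-4.11 ± 0.73), were further gains in VL. In Cdh4, as in Fam83d, Mybph, Tmem132b and Six2, collection E held the highest adult VI value, 39.4 CPM against 1.01 to 8.47 CPM in the other adult VI libraries. Collection E also held the highest Myh4 share in adult VI, and the part of this animal in each result was not tested beyond leaving it out.

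Among genes that fell in VI and rose in VL was Dkk3, a secreted dickkopf-family protein. It had 4.11, 6.24, 2.13, 4.12 and 0.838 CPM in adult VI, 14.2 to 132 in adult VL, 7.51 to 25.3 in E18.5 VI and 10.1 to 20.1 in E18.5 VL, a divergence of -4.28 ± 0.68 (adjusted p = 3.82e-05). Slc2a3, the glucose transporter GLUT3 (-3.06 ± 0.33), Neto2, a glutamate receptor auxiliary subunit (-2.96 ± 0.39), and Itga4, integrin alpha 4 (-2.96 ± 0.35) moved the same way.

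Calls among growth control genes were negative, and those at the neuromuscular junction went both ways. Of 18 growth genes 5 were negative and none positive, against 17.4% and 17% of all genes tested. The call of Gadd45a, 1 of the 5, was lost in several alternatives. With the adult VI library of embryonic profile put back, 4 were negative and 1 positive. Mstn (myostatin, the brake on muscle mass) had 10.5, 3.74, 6.45, 37.5 and 10.4 CPM in adult VI, 147 to 246 in adult VL, 7.02 to 71.5 in E18.5 VI and 22.3 to 120 in E18.5 VL, a divergence of -2.89 ± 0.69 (adjusted p = 0.00228), and Mss51, a mitochondrial protein of glycolytic fibres, one of -3.94 ± 0.73. The atrophy ligases Fbxo32 (-0.11 ± 0.47) and Trim63 (0.12 ± 0.27) did not pass. At the junction 5 of 15 genes were positive and 4 negative, against 17% and 17.4% of all genes tested. The adult acetylcholine receptor subunit Chrne gained in VL (-2.24 ± 0.32), while the fetal subunit Chrng (1.81 ± 0.51) and Chrnd (1.90 ± 0.35) were lost further in VL. Of 17 satellite and myogenic genes 2 were positive and 3 negative, near the 17% and 17.4% of all genes tested, with Myod1, a myogenic determination factor, lost in VI (-1.35 ± 0.25) and Myf6 gained in VL (-0.73 ± 0.15).

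Developmental sarcomere genes fell in both muscles with age except Tnni3, which did not pass in either. Of the 11, 3 diverged positively (Tnnt2, Myl4 and Chrng) and 1 (Actc1) negatively, against 17% and 17.4% of all genes tested. Tnnt2, cardiac troponin T, had 10.7, 16.5, 10.7, 5.77 and 8.43 CPM in adult VI, 0.827 to 2.00 in adult VL, 159 to 291 in E18.5 VI and 140 to 257 in E18.5 VL, a divergence of 2.87 ± 0.34 (adjusted p = 1.17e-06). The embryonic light chain Myl4 (1.93 ± 0.30) was a further loss in VL. Of 14 imprinted growth genes 1 was positive and 3 negative, against 17% and 17.4% of all genes tested. The positive one was H19 (2.86 ± 0.27), a noncoding RNA, and the negative ones were Dlk1 (-2.69 ± 0.44), Peg3 (-1.70 ± 0.46) and Peg10 (-1.05 ± 0.26). With the adult VI library of embryonic profile put back, Dlk1, Peg3 and Peg10 had positive values. Then 11 of the 14 imprinted genes and 8 of the 11 developmental sarcomere genes were called positive, and none negative.

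Position and signalling genes did not move as a block. Of 34 limb patterning genes 6 were positive and 7 negative (4 and 5 without E18.5 collection B), near 17% and 17.4% of all genes. The negative ones were Lbx1 and the Hox genes Hoxa11, Hoxc10, Hoxc11, Hoxd8, Hoxd9 and Hoxd10, transcription factors of position along the limb, with Hoxd10 at -3.55 ± 0.89 and Hoxd9 at -2.42 ± 0.72 (adjusted p = 0.0545 with the animal as a block). The positive ones included Tbx3 (1.73 ± 0.28) and Tbx4 (0.97 ± 0.34), T-box factors of limb growth. Of 35 secreted signals 9 were positive and 7 negative, against the same 17% and 17.4% of all genes. By source the positive ones were 4 gains in VI, 4 losses in VL and 1 both ways. The negative ones were 3 losses in VI, 2 gains in VL and 2 both ways. Vegfa, the main angiogenic factor, gained in VI (2.12 ± 0.38), as did Vegfb (1.02 ± 0.20), Angpt1 (1.98 ± 0.29) and the neurotrophin Bdnf (2.60 ± 0.74).

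Endothelial markers and markers of pericytes and smooth muscle diverged mostly to the positive side, against 17% of all genes tested. Of 14 endothelial markers 10 were positive, none negative (median 0.72), and their summed level was 1001 to 1411 CPM in adult VI, 482 to 799 in adult VL, 702 to 992 in E18.5 VI and 582 to 875 in E18.5 VL. Kdr, the main VEGF receptor, had 183, 174, 180, 146 and 202 CPM in adult VI, 47.5 to 81.1 in adult VL, 103 to 133 in E18.5 VI and 82.3 to 128 in E18.5 VL. Of 12 pericyte and smooth muscle markers 7 were positive and 1 negative, with sums of 940 to 1285, 910 to 1270, 970 to 1175 and 904 to 1326 CPM in adult VI, adult VL, E18.5 VI and E18.5 VL. Adult collection F had only 5 of these 12 higher in VI than in VL (median log2 difference -0.58), against 9 to 11 in the other adults. Of 28 extracellular matrix genes 11 were positive, all losses in VL, led by Postn (1.99 ± 0.35) and Col14a1 (1.79 ± 0.44). Their count was 17 with the adult VI library of embryonic profile put back. Of 12 leukocyte markers 5 were positive, but 2 without E18.5 collection B and 3 with that adult library put back. Fibroblast markers were split, 2 and 2 of 13, tendon markers and erythroid markers had no call among 11 and 5, Schwann cell markers 1 positive of 11, adipocyte markers 2 positive of 10, and cartilage and bone markers 1 each way of 6. For all these lists the shares over all genes tested were 17% positive and 17.4% negative. Skeletal muscle defining genes summed to 112001 to 136068 CPM in adult VI, 162286 to 249839 in adult VL, 19025 to 31455 in E18.5 VI and 21550 to 34223 in E18.5 VL. The part of cell makeup in these results was not tested.

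The same contrast was formed in the shank, soleus minus gastrocnemius, in 1 fit over 47 libraries and 16402 genes. The shank divergence passed in 6318 genes (38.5%), and thigh and shank divergence differed in 296 (1.8%), of which 227 were higher in the thigh (1.38%) and 69 lower (0.421%). With the animal as a block, 696 genes passed, 531 higher and 165 lower, and with the adult VI library of embryonic profile put back, 82 did. The count was 196, 165 and 177 without adult collections B, E and F, and 170, 166 and 187 without E18.5 collections C, D and E. The split was 151 higher and 87 lower with upper-quartile scaling, and 322 and 178 with DESeq2. Slow sarcomere genes stood out, with 8 of 16 higher in the thigh and none lower. Their median divergence was 8.93 in the thigh and 3.62 in the shank, and the levels show where the gap lay: Myl3 averaged 2120 CPM in adult VI and 0.36 in adult VL, against 5194 in adult soleus and 220 in adult gastrocnemius. Myl3 differed by 7.60 ± 1.66 log2 (adjusted p = 0.00736) and Myoz2 by 6.83 ± 0.93 (adjusted p = 1.3e-05). For Myh7 the difference of 6.28 did not pass (adjusted p = 0.0582).

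Among fast genes the thigh divergence was the less negative one. Of 16 fast sarcomere genes 6 were higher in the thigh and none lower, against 1.38% and 0.421% of all genes tested. The medians were -1.63 in the thigh and -3.11 in the shank. Myh4 averaged 17426 CPM in adult VI and 144656 in adult VL, against 98.7 in adult soleus and 114306 in adult gastrocnemius, a difference of 7.50 ± 0.92 (adjusted p = 3.6e-06). Pvalb (6.17 ± 1.33), Actn3 (5.70 ± 1.17) and the lactate exporter Slc16a3 (3.08 ± 0.56) were also higher in the thigh. None of the 27 fatty acid genes passed it (thigh median 1.49, shank median 0.88), and none of the 16 slow genes was lower.

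Wnt16 also differed, at a mean of 10.8 CPM in adult VI and 0 in adult VL, against 5.47 in adult soleus and 3.24 in adult gastrocnemius. Its interaction passed at an adjusted p of 0.000295. In the other direction, Crabp1 was lower in the thigh, at 0.01 CPM in adult VI and 0.43 in adult VL, against 0.20 in adult soleus and 0.04 in adult gastrocnemius. Myo16, an unconventional myosin, differed by -6.84 ± 1.71 and Sncg, gamma-synuclein, by -3.33 ± 0.91. Adult Crabp1 averaged at most 0.43 CPM in all 4 muscles, and adult Myo16 at most 0.17 CPM.

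**Figure D5:**
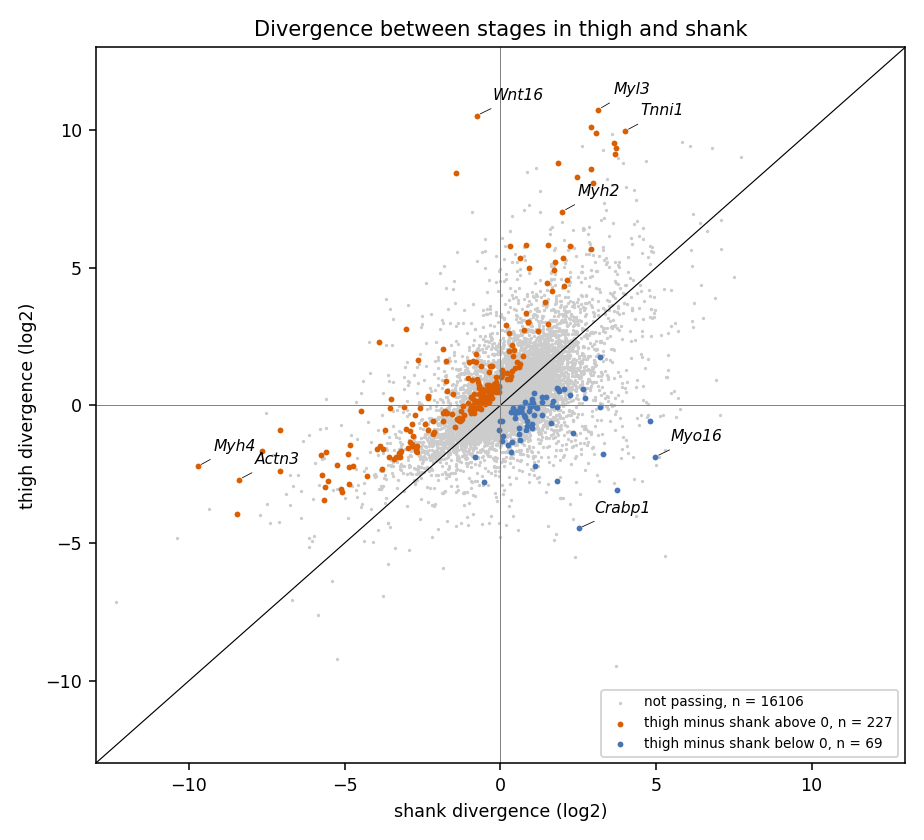
Divergence in the shank (x axis) and in the thigh (y axis), log2, for 16402 genes in the fit over 47 libraries, with the line of equal divergence and the 227 genes higher and 69 genes lower in the thigh coloured. Slow genes such as Myl3 and Tnni1 lie above the line at positive values, and Myh4 and Actn3 above it at negative values.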

How the data were processed

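The authors deposited 1 table of raw counts per gene and library (27179 genes, 48 libraries). Per the submitters' processing notes, the build was mm10 and the tools named are STAR 2.7.11, Subread 2.0.6 with featureCounts, Trimmomatic 0.39.0, FastQC 0.11.5 and DESeq2 1.44.0. For the annotation and the strand setting, the sources used here state nothing. Near-identical, overlapping and antisense genes can therefore share counts. The featureCounts gene length in the same deposited file served only for myosin shares. The authors also deposited 9 comparison tables with log2 fold changes, which were used only for their 18780 gene symbols, and 6501 further symbols came from RefSeq.

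Samples were matched to columns by stage and muscle. The column names carry no animal number, so the date tag (4 dates at E18.5, 5 in adults, with letters where a date recurs) stands for the animal. The labels say that the 4 muscles came from the same 6 animals per stage, which is where the pairing comes from. After group means were removed, libraries of 1 animal correlated by 0.0857 on average in adults (0.0407 to 0.101, 5 pairs) and by 0.120 at E18.5 (-0.139 to 0.364, 6 pairs). With the animal as a block, changes with age cannot be estimated, because no animal spans both stages.

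Counts were analysed with edgeR 4.0.16 in R 4.3.3 (filterByExpr, TMM scaling, quasi-likelihood test), with Benjamini-Hochberg adjustment over all 15732 genes tested and a threshold of 0.05. Each ± beside a log2 value is a standard error derived from the F statistic. The thigh fit used 23 libraries, and the comparison with the shank used 47. DESeq2 1.42.0, other scalings, no filter, an animal block, and leaving out each animal were alternatives. Replicates are separate animals, and every pair of libraries in a group differed by more than sampling noise. Intervals and floors cover counting error only.

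The text names, for each of the 6 sources, the 5 genes with the largest absolute divergence among those called with a mean of at least 10 CPM in a thigh group, then up to 4 called genes per list by the same measure, the 6 myosins, and the 3 largest thigh against shank differences in each direction. Vtn, Igf2 and some further list members were named after their values were seen. The members and lists were chosen with earlier results of these data known. Some genes that this rule names are not reported here.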

Additional observations from a re-analysis of the deposited data

Results flagged for a closer look

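In groups of 5 or 6 libraries, 1 library stood far from the rest in 29 of 140 groups examined, where chance gives about 1 in 20 for independent values. These groups share libraries, so the flags are not independent. Adult VI collection E held 11 of them. It was high for Fam83d (1.58 CPM), Tpx2 (3.78), Mybph (59.2), Tmem132b (3.43), Cdh4 (39.4), Six2 (3.57), Slc2a3 (3.64), Neto2 (5.22), Myh4 (49378) and Myh8 (7.48), and low for Cda (8.37 CPM).

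E18.5 VL collection B was high for 6 slow-muscle genes: Myoz2 (531 CPM), Sv2b (19.3), Myl3 (255.9), Myl2 (289), Myh7 (1108) and Tnnt1 (659). E18.5 VI collection B was apart for Htra4 (1.08 CPM) and Slc2a3 (2.78 CPM), and E18.5 VI collection E for Lrrc52 (0.748 CPM).

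Adult VL collection A was high for Myl3 (1.31 CPM), Myl2 (2.56), Myh7 (9.00) and Tnnt1 (4.45). Single libraries were also apart for Sbk3 (26.5 CPM, adult VI collection D), Crabp1 (0.0534 CPM, adult VI C), Sv2b (0.0472 CPM, adult VL C), Actc1 (3444 CPM, adult VL D) and Myh3 (12.4 CPM, adult VL F). For Crabp1 and Sv2b that value is a single count.

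Divergence differed between thigh and shank in 13 of the 35 genes named by source or as myosins, against 1.8% of all genes tested, by edgeR's quasi-likelihood test of the difference. Most of the 35 were picked for a large thigh divergence, which enters that test, so the count is only a description. The log2 values, thigh minus shank, were 7.60 for Myl3, 7.19 for Myl2, 6.83 for Myoz2, 5.95 for Tnni1, 5.86 for Tnnt1, 5.82 for Csrp3, 5.09 for Myom3 and 4.28 for Klhl34. Myh4 was at 7.50, Myh2 at 5.05, Neto2 at 2.67 and Crabp1 at -6.99. The fitted value for Wnt16 was 11.28, which depends on the prior count because adult VL held no count of it.

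The adult VI library that was left out held Myh3 at 8916 CPM and Igf2 at 8345 CPM, above every other adult VI library.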

How the results depend on the processing

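Of 118 named genes 114 passed, 83 of them in all 19 alternatives, and 31 lost the call in at least 1. The divergence count was 5418, with 4767 to 5408 when 1 animal was left out, 5087 without a filter, 5923 with DESeq2 and 5727 with the animal as a replicate block (2954 positive, 2773 negative). The E18.5 pair gave 1 gene, against 8 in 1 fit over all 4 muscles, 5 with the replicate block, 19 with DESeq2, 0 with the left-out library put back, and 1 to 48 when 1 animal was left out. Thigh against shank gave 296, against 696 with the block, 500 with DESeq2, 82 with the left-out library, and 165 to 341 when 1 animal was left out. With the left-out library, the divergence count was 4840 (2808 positive, 2032 negative), gains in VI numbered 402 and losses in VI 183, the median over all genes moved to 0.17, and log2 divergence changed sign for Crabp1 (4.04), Actc1 (0.22), Myh8 (7.97), Mcm2 (0.26), Dlk1 (6.59), Peg3 (1.41) and Peg10 (5.36). Genes with positive divergence and neither muscle called numbered 29 without a filter, 22 with the left-out library and 9 to 21 when 1 animal was left out, and those with negative divergence 7 with DESeq2 and 6 to 15. The causes were not tested. The replicate block also ended the calls of Acta2, Cd3e, Cxcl14, Runx2 and Sim1 and changed no other divergence call of a named gene beyond those given above. Genes near 3 counts per library, such as Crabp1 in adults, are limited by depth.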
